A study of Homo sapiens with 23 samples.

Results

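Promoter chromatin of the G1 cell cycle genes was examined in NCI-H23, an established lung cancer cell line. The genes were the D cyclins CCND1 and CCND2, the kinases CDK4 and CDK6, the inhibitor genes CDKN2A, CDKN2B and CDKN1A, and RB1. They were listed by name for their place in this pathway, with no measured value in the rule, and make up 8 of the 20056 protein-coding genes in the gene table used. CDKN2A has 2 alternative promoters, so that 9 start sites were described. A target was scored at a start site when a called peak shared at least 1 bp with the window reaching 1 kb to each side, and it was called there when this held in both replicate lists.

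Chromatin immunoprecipitation followed by sequencing had been carried out for 11 targets with 2 libraries each, which gave 22 lists of peaks, all from NCI-H23 cells. The targets were BRD2, the methylation marks H3K4me1, H3K4me3, H3K36me3, H3K27me3 and H3K9me3, and the acetylation marks H3K27ac, H4K5ac, H4K8ac, H4K12ac and H4K5acK8ac, the last being histone H4 acetylated on both lysines 5 and 8 of a tail. The labels share a treatment protocol that names JQ1, an inhibitor of BET proteins such as BRD2, and DMSO, yet none of them ties either to a library, and treatments are not compared. The input library was not analysed here, and the labels do not say whether replicates came from separate cultures.

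In the G1 phase the D cyclins bind and activate CDK4 and CDK6, and these kinases phosphorylate the retinoblastoma protein encoded by RB1, which releases E2F transcription factors and lets cells enter S phase. The INK4 proteins p16, from CDKN2A, and p15, from CDKN2B, bind CDK4 and CDK6 and block them, whereas p21, from CDKN1A, is a broader kinase inhibitor and a classical target of p53. The downstream CDKN2A promoter gives p16 and the upstream promoter gives p14ARF, a protein that stabilises p53. H3K4me3 and H3K27ac mark active promoters, H3K36me3 the bodies of transcribed genes, H3K27me3 chromatin silenced by Polycomb and H3K9me3 heterochromatin. BRD2 binds acetylated histone tails through its bromodomains.

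The start sites fell into groups by the marks called. BRD2 and H3K4me3 were both called at CCND1, CCND2, CDK4 and RB1. H3K4me3 and H3K27ac were called with BRD2 in only 1 of its lists at CDK6, CDKN1A and the upstream CDKN2A start. The same pair was called with no BRD2 in either list at CDKN2B, and nothing was called at the downstream CDKN2A start. To show what DNA lies before RefSeq starts of these genes, 250 bases are given for 3 of the groups. They come from the first gene with a RefSeq entry in the groups with BRD2, without BRD2 and without any call. No sequence is shown for the group with BRD2 in 1 list, because CDK6, its first gene, has 2 entries that were not matched to the start used here. CDK4 and CDKN2B each have a single entry. These entries were not matched to the hg19 starts used for the peaks either, so their bases need not lie directly before those starts. All 3 sequences lie on the minus strand of RefSeq build GRCh38.p14, are written 5′ to 3′, and end next to the RefSeq start. They are CDK4 at chr12:57752311-57752560, CDKN2B at chr9:22009306-22009555 and the downstream CDKN2A start at chr9:21974858-21975107. Capitals mark the E-box CACGTG, a motif bound by MYC with MAX and by related factors, and the GC box GGGCGG bound by SP1 and related factors, on either strand.
CDK4: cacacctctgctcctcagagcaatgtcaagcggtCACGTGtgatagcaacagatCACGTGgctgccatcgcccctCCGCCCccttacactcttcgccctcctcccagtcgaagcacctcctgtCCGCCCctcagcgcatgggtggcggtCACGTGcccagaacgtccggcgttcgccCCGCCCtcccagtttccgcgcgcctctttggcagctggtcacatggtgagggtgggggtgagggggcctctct
CDKN2B: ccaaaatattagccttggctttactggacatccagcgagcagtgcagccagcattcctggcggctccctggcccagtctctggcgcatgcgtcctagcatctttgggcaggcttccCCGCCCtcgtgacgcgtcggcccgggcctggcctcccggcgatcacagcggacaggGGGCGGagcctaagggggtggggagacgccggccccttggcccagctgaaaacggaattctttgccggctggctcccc
CDKN2A downstream: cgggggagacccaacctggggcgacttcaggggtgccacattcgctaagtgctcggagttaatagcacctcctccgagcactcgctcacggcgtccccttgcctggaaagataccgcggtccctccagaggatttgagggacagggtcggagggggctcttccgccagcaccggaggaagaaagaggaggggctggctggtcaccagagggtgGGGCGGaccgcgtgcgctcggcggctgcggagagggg

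The CDK4 promoter held 3 E-boxes, at positions -216, -196 and -101 from the RefSeq start, and 3 GC boxes, at -175, -127 and -73. CDKN2B held 2 GC boxes, at -134 and -78, and the downstream CDKN2A promoter held 1, at -37. Of 35116 RefSeq promoter entries, 6.34% held an E-box in their upstream 250 bases and 42.6% a GC box. At least 3 E-boxes were found in 28 entries, or 0.0797%, and at least 3 GC boxes in 13.9%. No match overlapped another. The letters of an E2F site (TTTCCCGC, TTTCGCGC, TTTGCCGC or TTTGGCGC, on either strand) and the TATA box TATAAA were absent from all 3 windows, and 2.79% and 10.7% of all entries held them. The motifs were chosen after these sequences had been read, and a match is a description of letters, not a bound site. The windows were alike in base composition, with a GC content of 65.6% for CDK4, 66.4% for CDKN2B and 66.8% for the downstream CDKN2A promoter, against a median of 58.0% over all entries. The table held entries for 6 of the 8 genes, of which that of RB1 was not used; CCND1 and CCND2 had no entry.

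The 9 start sites were read against promoter-like windows of the same 2001 bp length, centred on the 20506 regions with H3K4me3 in both lists. H3K4me3 itself was called at 8 start sites, and in 2.65% of 1500427 windows laid end to end over the genome. H3K27ac was called at the same 8 start sites, against 78.0% of promoter-like windows. H4K5acK8ac, H4K5ac and H4K12ac were each called at 7 start sites, against 84.9%, 82.9% and 77.9%, and in each case CDKN2B and the downstream CDKN2A start were the sites left out. At the upstream CDKN2A start the H4K5ac call rests in list 1 on 35 bp of overlap, and it was lost with windows of 500 bp to each side. H4K8ac was called at 5 start sites, against 52.9%, and was found in list 1 only at CDK6 and the upstream CDKN2A start. At CDK4 the H4K8ac call rests in list 2 on a peak of 225 bp with a −log10 q of 1.33. All 5 acetylation marks were called together at the same 5 start sites as H4K8ac, namely CCND1, CCND2, CDK4, CDKN1A and RB1, against 48.6% of promoter-like windows. These shares of the start sites lay near the background, so the counts alone do not set these promoters apart.

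BRD2 was called at 4 start sites, against 49.0% of promoter-like windows. It was found in list 2 only at CDK6, CDKN1A and the upstream CDKN2A start. The count therefore rests on list 1: BRD2 list 1 alone gave 4 start sites and list 2 alone gave 7, where 51.0% and 66.9% of promoter-like windows had a peak in list 1 and list 2. Of the 3 list 2 peaks without a partner, those at CDK6 and CDKN1A had a q above 0.05, with −log10 q values of 0.799 and 0.572, and the peak at the upstream CDKN2A start had 1.97. H3K4me1 was called at 5 start sites, against 78.1%, and H3K36me3 at CDK4 alone, against 10.1%. H3K27me3 and H3K9me3 touched none of the 9 windows in either list, against 9.65% and 3.61% of promoter-like windows with a call in both lists; 84.4% and 93.9% of promoter-like windows likewise had no peak of the mark in either list. Thus H3K4me3 and H3K27ac without either repressive mark were called at 8 start sites, against 74.6%.

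**Figure D1:**
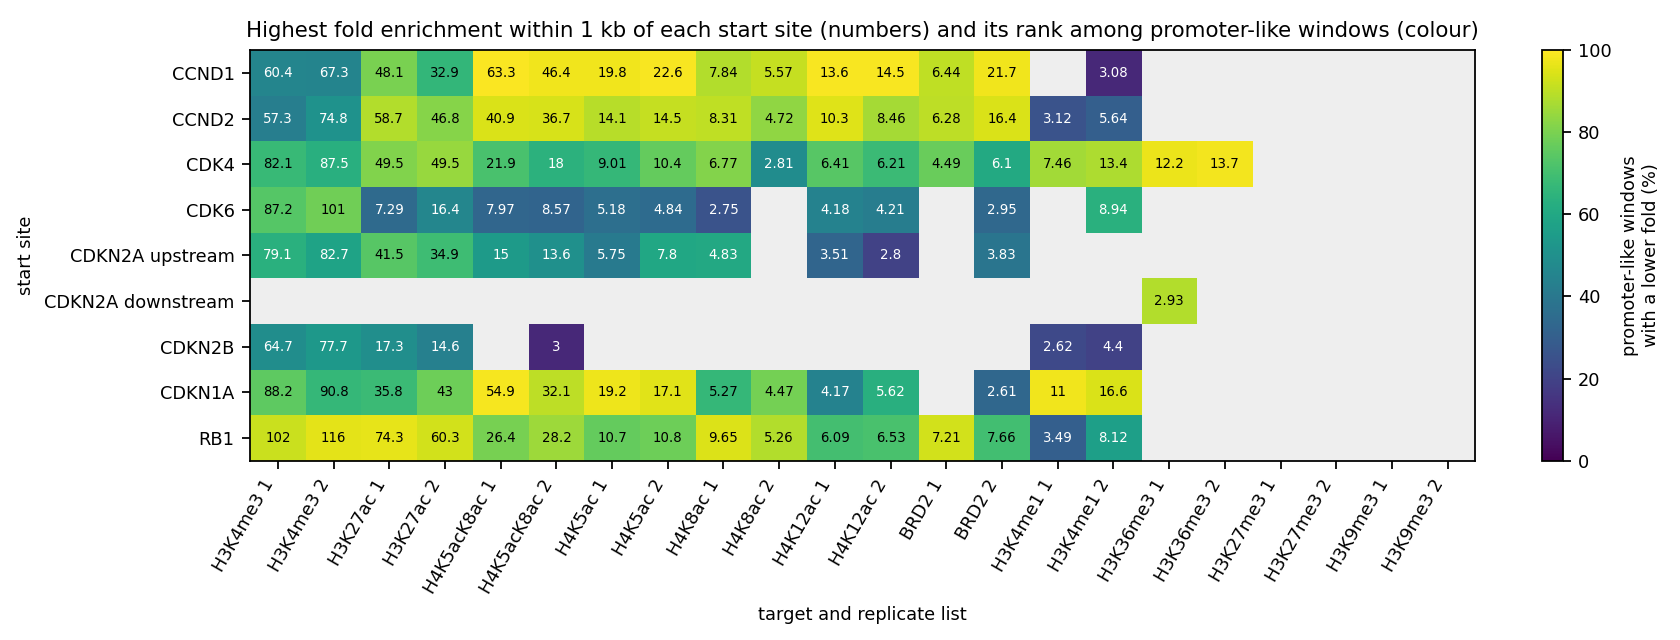
Highest fold enrichment of a peak overlapping each start window (rows, numbers in cells) for every target and replicate list (columns), with colour giving the percentage of promoter-like windows with a lower fold in that list and grey marking no peak. The CDKN2A downstream row is empty except for 1 H3K36me3 peak of 2.93, and BRD2 list 1 has values only at CCND1, CCND2, CDK4 and RB1.

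Peak strength is given as fold enrichment, the authors' value for each peak over the peak caller's local background, and it was compared between start sites only within a list. H3K4me3 varied little over the 8 start sites, its highest fold being 1.78 times its lowest in list 1 and 1.72 times in list 2. H3K27ac spread further, by 10.2 and 4.14 times. H4K5acK8ac spread by 7.94 times over the 7 sites with a peak in list 1 and by 15.5 times over the 8 sites in list 2. H4K5ac and H4K12ac spread by 3.82 and 3.86 times in list 1 and by 4.66 and 5.18 times in list 2, each over 7 sites. H4K8ac spread by 3.50 times over 7 sites in list 1, but by 1.98 times over 5 sites in list 2, close to the spread of H3K4me3.

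Among the D cyclins, the regulatory subunits that activate CDK4 and CDK6, CCND1 (start at chr11:69455873 of hg19, plus strand) carried the strongest H4K5acK8ac, H4K5ac and H4K12ac of all start sites in both lists. Its H4K5acK8ac fold was 63.3 in list 1 and 46.4 in list 2, above that of 99.4% and 98.0% of promoter-like windows (those without a peak counted as lower), and its H4K12ac fold was 13.6 and 14.5, above 99.0% and 99.2%. H3K4me3 at CCND1 was near the middle, at 60.4 and 67.3 against promoter-like medians of 65.6 and 73.6. What set its H3K4me3 peak apart was width: it spanned 9650 bp in list 1 and 9299 bp in list 2, the 31st and 33rd widest of lists of 21580 and 22025 peaks. H3K27ac reached 48.1 and 32.9 in fold and covered 15664 bp and 16047 bp, extending from the upstream flank across the start.

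BRD2 at CCND1 followed the same broad form. In list 2 a single BRD2 peak ran over chr11:69450707-69458204, and at 7498 bp it was the widest peak of that list. Its fold was 21.7, and its summit lay at -3051 bp, where negative positions are upstream of the start. In list 1 the region was split into 5 peaks; the peak at the start had a fold of 6.44 and the strongest, with its summit at -2986 bp, had 8.46. The strongest BRD2 signal thus lay outside the start window in both lists, close to the H4K5acK8ac summits at -3687 bp and -3139 bp. H3K4me1, a mark of enhancers and promoter flanks, had no peak in the window in list 1 and a fold of 3.08 in list 2.

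CCND2 (start at chr12:4382902, plus strand) was similar in kind. Its H3K4me3 peak spanned 8846 bp and 8838 bp, ranking 49th and 44th by width, with folds of 57.3 and 74.8. Its H4K5acK8ac folds of 40.9 and 36.7 exceeded 94.2% and 94.0% of promoter-like windows. These summits lay outside the window on opposite sides of the start, at 1513 bp in list 1 and -1059 bp in list 2. List 1 also had an H4K5acK8ac summit at -1055 bp, with a fold of 38.4. BRD2 had a fold of 6.28 in list 1 and 16.4 in list 2, with summits at -1149 bp and -1105 bp, just beyond the window that the peaks entered. A second BRD2 summit lay on the other side of the start, at 1219 bp and 1258 bp, with folds of 4.43 and 10.6. CCND2 also had H3K27me3 peaks overlapping the upstream part of its H3K4me3 peak, which reached to -5201 bp and -5191 bp: the nearest to the start lay 3804 bp upstream in list 1 and 2261 bp in list 2, with folds of 2.70 and 3.59, and H3K27me3 covered 22.4% and 45.0% of the stretch from 1 to 10 kb upstream. At CCND1 the nearest H3K27me3 peaks were 11620 bp and 30210 bp away. Of promoter-like windows, 84.0% and 83.1% were at least as far from H3K27me3 as the CCND2 start, and the rest were closer.

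**Figure D2:**
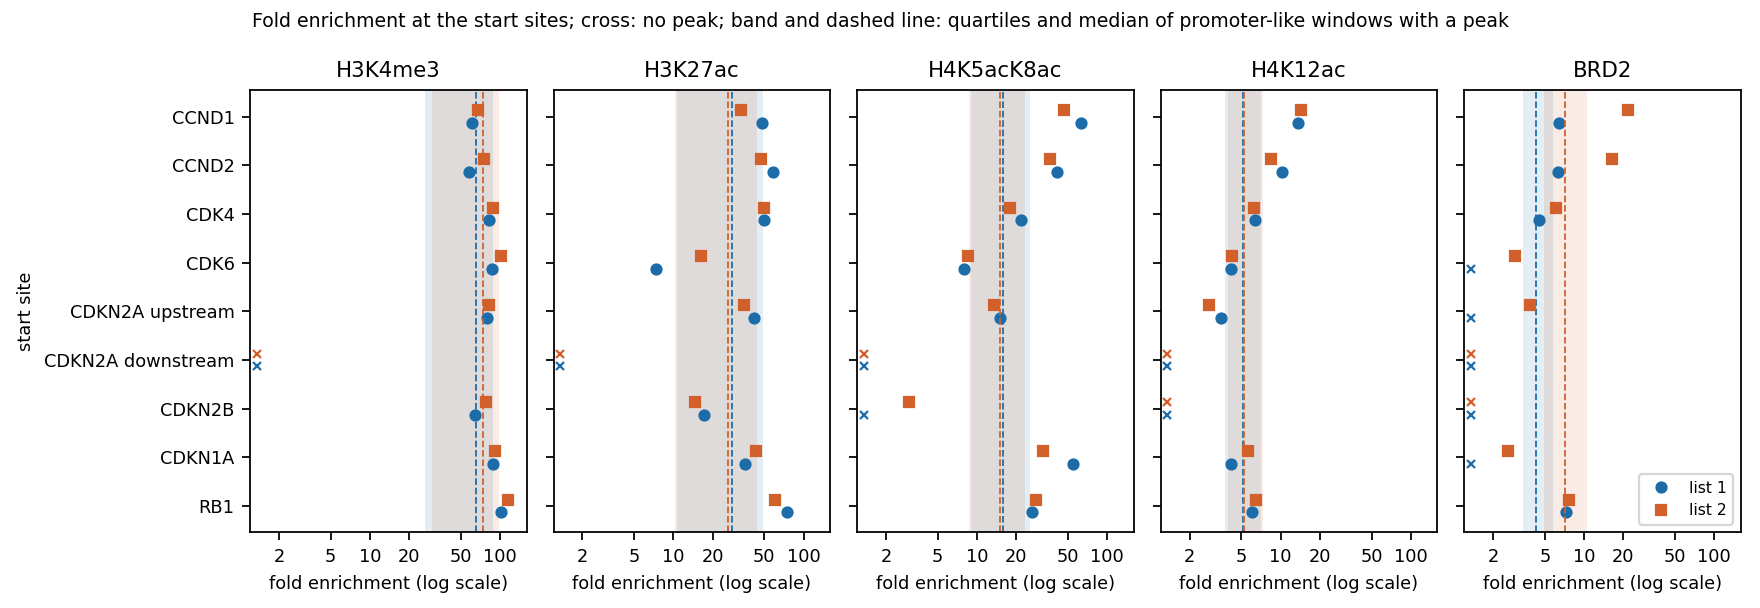
Fold enrichment (log axis) of 5 targets at the 9 start sites, with circles for list 1, squares for list 2 and crosses for no peak; bands and dashed lines are quartiles and medians of promoter-like windows with a peak in the same list. H3K4me3 lies within or near the bands at 8 start sites, and H4K12ac and BRD2 are highest at CCND1 and CCND2 in list 2.

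Of the kinases, CDK4 (start at chr12:58146230, minus strand), whose promoter sequence is shown above, had the most targets called, 9 of 11. Its H3K4me3 fold was 82.1 and 87.5 and its H3K27ac fold 49.5 in both lists, with peaks of 2233 bp and 2149 bp for H3K4me3. BRD2 had a fold of 4.49 in list 1 and 6.10 in list 2, near the promoter-like medians of 4.30 and 7.11. Unlike the D cyclins, CDK4 had the strongest summit of its promoter BRD2 signal inside the window, at 341 bp and 239 bp downstream of the start, near the H3K27ac summits at 291 bp and 341 bp. CDK4 was also the only start site with H3K36me3 called. That peak began 931 bp and 778 bp downstream, ran to 6183 bp and 6078 bp, and had folds of 12.2 and 13.7.

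CDK4 lies among several other H3K4me3 regions. Within 15 kb on either side, list 1 had further H3K4me3 summits at 14388 bp, 7241 bp, -2674 bp and -13540 bp, and list 2 at 14212 bp, 7264 bp, -2723 bp and -13585 bp. The strongest BRD2 peak within 50 kb, at chr12:58165572-58165935, had its summit at -19534 bp from the CDK4 start and also carried H3K4me3, so that it cannot be assigned to CDK4 from these data. Its fold was 19.9 in list 2 and 7.51 in list 1. H3K27me3 approached the start to 2891 bp and 3385 bp, with folds of 3.07 and 4.48, on the upstream side. A distance at least as great was found for 85.3% and 81.3% of promoter-like windows.

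CDK6 (start at chr7:92463231, minus strand) combined a high H3K4me3 level with low acetylation. Its H3K4me3 fold of 87.2 and 101 was above the promoter-like medians, while H3K27ac reached only 7.29 in list 1 and 16.4 in list 2, above 34.7% and 46.0% of promoter-like windows. H4K5acK8ac was 7.97 and 8.57, the lowest of the 7 called sites in both lists, and H4K5ac was 5.18 and 4.84, also the lowest. BRD2 gave no peak in list 1 and 2 weak peaks in list 2, the stronger with a fold of 2.95. Among the 4211 promoter-like windows with H3K4me3 at least as high as at CDK6 in both lists, BRD2 was called in 71.7%. Among the 13033 with H4K5acK8ac at least as high, it was called in 74.1%. CDK6 sets the lower limit of each set, and its H4K5acK8ac was above only 33.0% and 32.1% of promoter-like windows. Neither share therefore describes windows at the level of CDK6. H3K27me3 also lay upstream of CDK6, and in list 2 its nearest peak, 1740 bp from the start, overlapped the H3K4me3 peak, which reached to -3573 bp. It covered 16.4% and 23.8% of the stretch from 1 to 10 kb upstream, with folds up to 4.33 and 4.03 within 15 kb. At least as far from H3K27me3 as the CDK6 start were 78.2% and 83.9% of promoter-like windows.

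**Figure D3:**
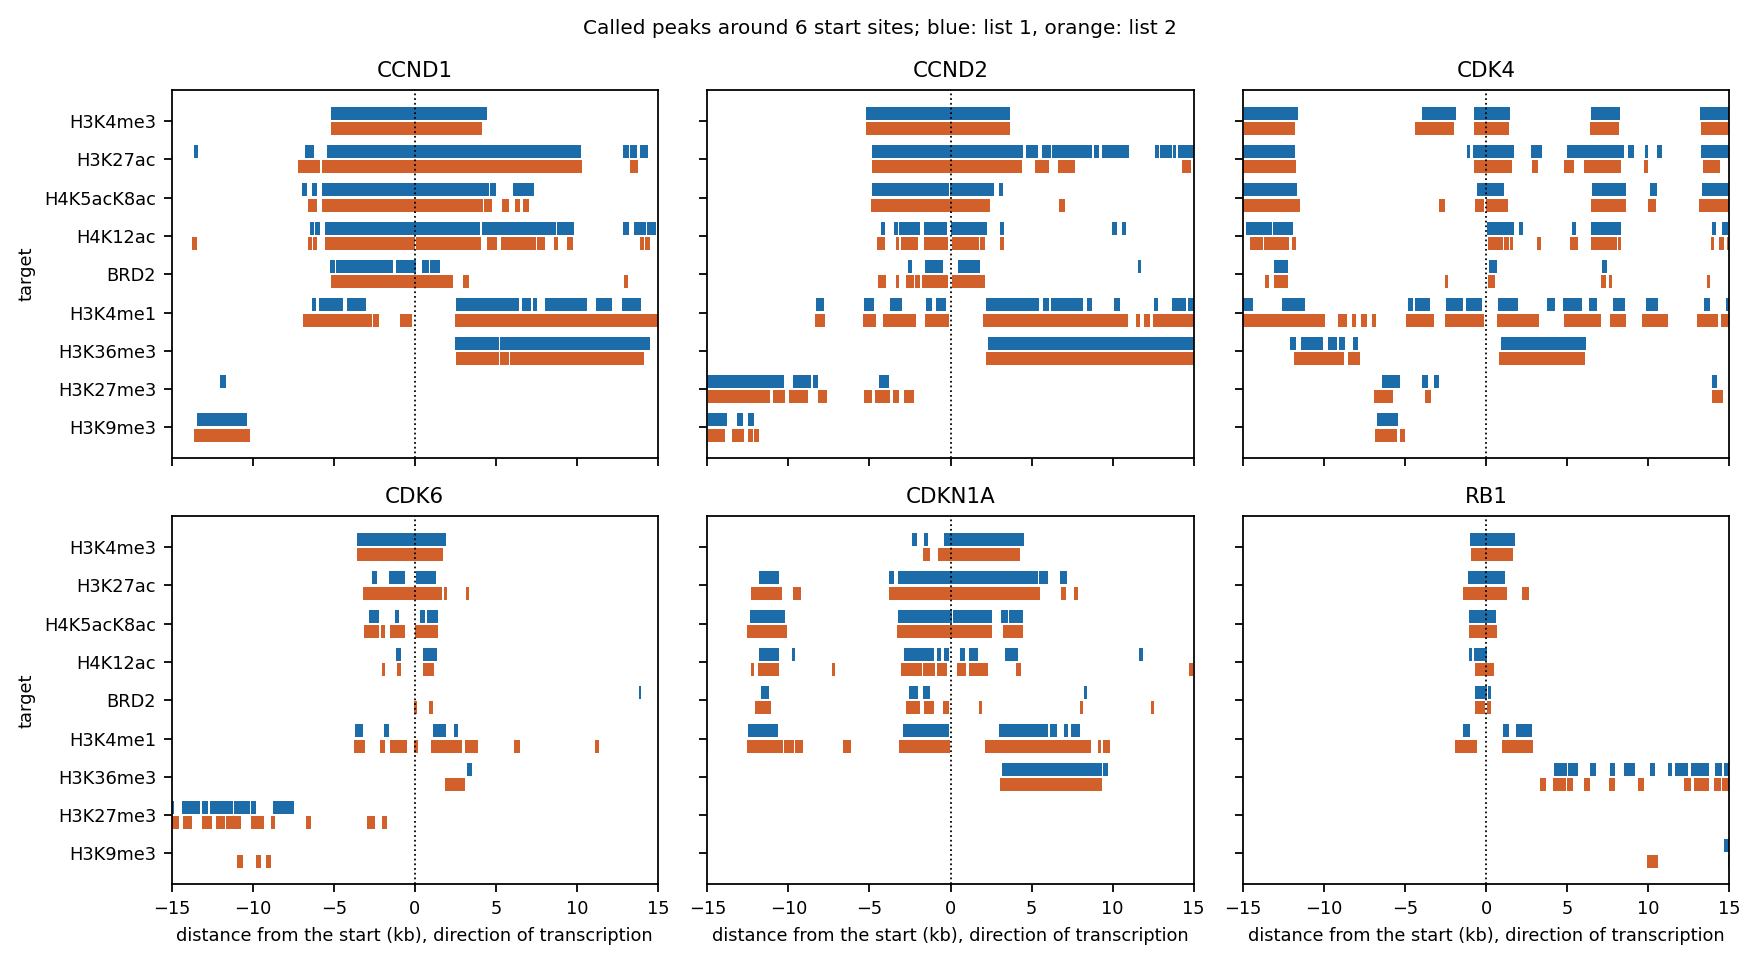
Peaks of 9 targets (rows) within 15 kb of 6 start sites, as horizontal bars at their distance from the start in kb in the direction of transcription, blue for list 1 and orange for list 2. Broad H3K27ac and BRD2 peaks span the CCND1 start, BRD2 lies upstream of the CDKN1A start, and H3K27me3 lies upstream of CCND2 and CDK6 outside the start windows.

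The INK4 inhibitor genes lie side by side on chromosome 9, in the order CDKN2B, upstream CDKN2A start and downstream CDKN2A start in the direction of transcription. CDKN2B (start at 22009312, minus strand) is 14822 bp from the upstream CDKN2A start (21994490), which is 19664 bp from the downstream start (21974826). In GRCh38.p14 the RefSeq entry of the upstream CDKN2A start is 13981 bp from that of CDKN2B, 841 bp less than the distance used here. The window at the upstream start may therefore not be centred on the RefSeq start. The antisense gene CDKN2B-AS1 is their neighbour in the gene table; ChIP-seq does not report strand, so peaks at the upstream CDKN2A start cannot be assigned to 1 gene of the pair.

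Within the window used, the upstream CDKN2A start, which gives p14ARF, resembled an active promoter with low H4K12ac and little BRD2. H3K4me3 had folds of 79.1 and 82.7, H3K27ac 41.5 and 34.9, and H4K5acK8ac 15.0 and 13.6, against promoter-like medians of 15.8 and 15.1 for the last. The H3K27ac and H4K5acK8ac summits lay outside the window, at -1135 bp and -1120 bp for H3K27ac and at -1478 bp and -1536 bp for H4K5acK8ac. H4K12ac, at 3.51 and 2.80, was the lowest of the 7 called sites in both lists, and the list 2 peak had a −log10 q of 1.18, a q above 0.05. Just outside the window, from -1533 bp to -1083 bp, list 2 had an H4K12ac peak with a fold of 3.73 and a −log10 q of 2.97. H4K8ac had a fold of 4.83 in list 1, with its summit at -1292 bp, and no peak in list 2, where the nearest lay 206086 bp upstream. No BRD2 peak was found in list 1 within 50 kb. The nearest in that list lay 659 kb away, and 0.878% of promoter-like windows were at least as far from BRD2. List 2 held 3 peaks within 50 kb, with summits at -148 bp, -1426 bp and -1710 bp from the start and folds of 3.83, 5.47 and 4.38. The strongest of these, at chr9:21995503-21996048, was also the strongest BRD2 peak within 50 kb of the CDKN2B start.

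CDKN2B had H3K4me3 at folds of 64.7 and 77.7, near the promoter-like medians, and H3K27ac at 17.3 and 14.6, below the medians of 28.0 and 26.3. Of the 4 histone H4 acetylation targets, only H4K5acK8ac gave a peak, in list 2, with a fold of 3.00. H4K5ac, H4K8ac, H4K12ac and BRD2 had no peak in the window in either list. This combination, H3K27ac in both lists and none of those 4 targets in either, held in 243 of 20506 promoter-like windows, or 1.19%. It was copied from the calls at CDKN2B after they had been seen, and leaves out H4K5acK8ac. The share is therefore a description and does not test whether CDKN2B is unusual. H3K4me1 was called with low folds of 2.62 and 4.40.

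The downstream CDKN2A start, which gives p16, had no call. Of the 22 lists, only H3K36me3 list 1 had a peak in its window, with a fold of 2.93, and list 2 had none. The nearest H3K4me3 peak lay 16730 bp upstream in list 1 and 16777 bp in list 2, on the side of the upstream start, and the nearest H3K27ac peak at 18239 bp and 18191 bp. A window without a peak of any list made up 43.6% of windows laid over the genome and 61.5% of those on chromosome 9. These windows were not chosen as promoters, and H3K4me3 was called in 2.65% of those over the genome. The shares are thus not a background for an annotated start, and the p16 window itself held the H3K36me3 peak. Peaks were nevertheless called nearby, as H3K36me3 was found from 3560 bp downstream of this start in list 1 and from 3331 bp in list 2, with folds of 6.66 and 6.17, and between the CDKN2A starts with folds of 5.06 and 5.05.

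No repressive mark was called at the p16 start in place of the active marks. The nearest H3K27me3 peak was 381 kb from it in list 1 and 342 kb in list 2, and 361 kb and 322 kb from the upstream start. In promoter-like windows the median distance was 40.4 kb and 35.3 kb, and 4.42% and 4.49% of them were at least as far from H3K27me3 as the upstream start was. The nearest H3K9me3 peak lay 73.9 kb and 73.7 kb from the p16 start. DNA methylation was not analysed here.

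**Figure D4:**
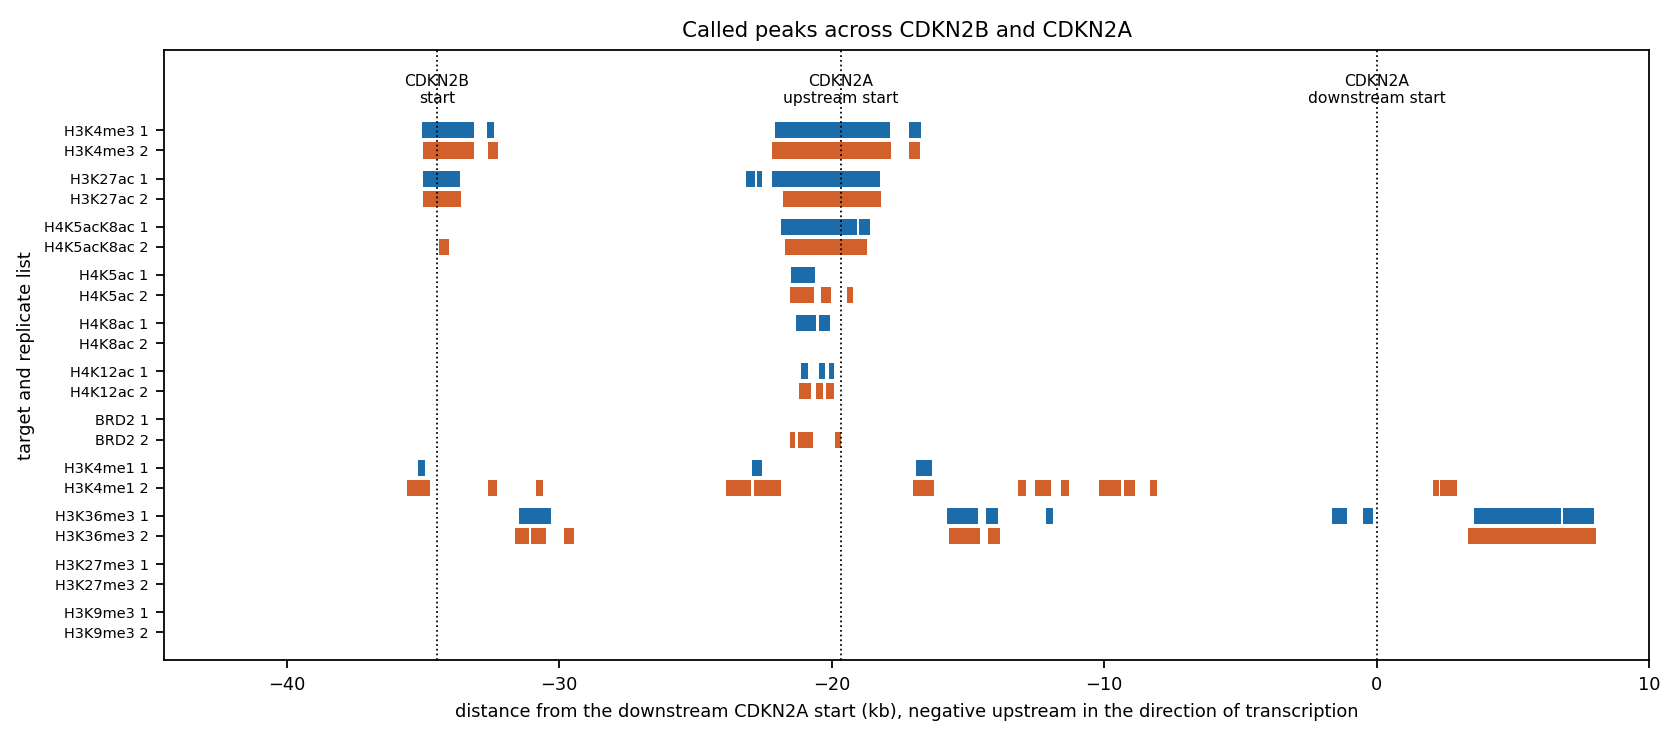
Called peaks of all 11 targets in both lists (rows, blue for list 1 and orange for list 2) across CDKN2B and CDKN2A, with distance from the downstream CDKN2A start in kb on the horizontal axis and dotted lines at the 3 starts. Active marks cluster at the CDKN2B and upstream CDKN2A starts, none lies at the downstream start, and the rows of H3K27me3 and H3K9me3 are empty.

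CDKN1A (start at chr6:36646459, plus strand), the p21 gene, had high H4K5acK8ac and H4K5ac, but its strongest BRD2 lay away from its start. Against promoter-like windows the other acetylation marks stood lower. H3K27ac was above 68.2% and 78.1% of them, H4K8ac above 66.4% and 79.0%, and H4K12ac above 44.2% and 62.9%. H4K5acK8ac had folds of 54.9 and 32.1, above 98.5% and 90.2% of promoter-like windows, and H4K5ac had 19.2 and 17.1. The wide peaks giving these values reached the window from upstream, with H4K5acK8ac summits at -2285 bp and -2232 bp and H3K27ac summits at -2154 bp and -2183 bp. BRD2 had its strongest peak in the same place: its summit was at -2320 bp with a fold of 7.54 in list 1, and at -2269 bp with a fold of 11.2 in list 2, at chr6:36643700-36644598. A second BRD2 summit lay at -1363 bp and -1440 bp, with folds of 3.02 and 6.01. Within the window itself list 1 had none and list 2 a peak of 2.61.

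H3K4me3 at CDKN1A was placed differently from BRD2. Its main peak, with folds of 88.2 and 90.8, ran from -426 bp to 4514 bp in list 1 and from -780 bp to 4290 bp in list 2. Upstream it had only small peaks, with folds of 2.25 and 3.05 in list 1 and 4.15 in list 2. H3K4me1 was the strongest of all start sites, at 11.0 and 16.6, with summits at -2384 bp and -2488 bp. Of the 295 promoter-like windows with H4K5acK8ac at least as high as at CDKN1A in both lists, 88.1% had BRD2 called, and 33 lacked it in list 1.

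A further acetylated stretch lay about 11 kb upstream of CDKN1A. It had H4K5acK8ac folds of 29.5 and 31.9, H3K27ac folds of 9.16 and 12.7, and H3K4me1 folds of 9.19 and 17.8. BRD2 peaks there had summits at -11373 bp and -11595 bp and folds of 4.20 and 5.13, and no H3K4me3 peak overlapped it in either list. This stretch was named after its values had been seen, and the peak lists do not link it to a gene.

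RB1 (start at chr13:48877883, plus strand), the substrate of the kinases, had the strongest H3K4me3 and H3K27ac of the start sites in both lists. H3K4me3 reached folds of 102 and 116 and H3K27ac 74.3 and 60.3, the latter above 96.4% and 93.3% of promoter-like windows. Its H3K4me3 peaks spanned 2785 bp and 2571 bp, wider than 79.9% and 76.5% of their lists but narrower than those of the D cyclins. BRD2 had folds of 7.21 and 7.66 with summits at -266 bp and -229 bp, close to the H4K5acK8ac summits at -300 bp and -265 bp. The BRD2 peak at the RB1 start was 686 bp and 633 bp wide and that at CDK4 501 bp and 439 bp, against 1127 bp and 1626 bp at CCND2. Within 50 kb of the RB1 start 2 BRD2 peaks were listed in each list, of which 1 and 2 had a q at most 0.05. At that threshold there were 6 in each list at CCND1, 5 and 9 at CCND2, 8 and 9 at CDK4, and 3 and 7 at CDKN1A. CDK6 had 2 and 0, and CDKN2A and CDKN2B shared 0 and 3.

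Among peaks overlapping the start windows, the sites with BRD2 in both lists had the higher H4K12ac folds. At the D cyclins these H4K12ac peaks had their summits outside the window. The summits lay at -3660 bp and -4031 bp for CCND1, and at 1553 bp and -1362 bp for CCND2. The 4 start sites with BRD2 called had H4K12ac folds of 6.09 to 13.6 in list 1 and 6.21 to 14.5 in list 2, whereas no other start site was above 4.18 in list 1 or 5.62 in list 2. H4K5acK8ac did not separate them, because CDKN1A had higher folds than CDK4 and RB1. In list 1 the order rests on the edge of the window: a CDKN1A peak of H4K12ac with a fold of 7.35, above CDK4 and RB1, ended at -1025 bp, just outside. This ordering was picked after the values had been seen and covers few sites. Over all promoter-like windows, BRD2 was called in 78.4% of the 9964 windows with all 5 acetylation marks and in 21.3% of the 10542 others. Of the 5 start sites with all of these marks, CDKN1A was the one without a BRD2 call.

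H3K36me3 downstream of the starts, a mark of transcribed gene bodies, also differed. It covered 93.1% and 93.9% of the stretch from 1 to 20 kb downstream of CCND2, 64.3% and 61.6% at CCND1, 45.1% and 35.9% at RB1, and 33.9% and 33.1% at CDKN1A. At CDK4 the share was 27.3% and 26.7%, and at CDK6 it was 1.69% and 6.37%. The stretches may run past the end of a short gene, as no gene ends of hg19 were used, so the shares are not corrected for gene length. CDKN1A had the strongest H3K36me3 peak of these stretches, with folds of 18.3 and 17.7, and CDK6 the weakest, with 2.64 and 3.83.

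The 22 lists ranged from 21580 peaks for H3K4me3 list 1 to 277462 for H3K27me3 list 2, with 56830 and 45730 for BRD2. Peaks with a q above 0.05 made up 64.7% and 28.1% of the BRD2 lists and 0.348% to 23.4% of the others. Read numbers are not in the lists, so the depth behind each value is unknown and a window without a peak does not show that the target was absent. With 2 libraries of a target against 2 of another the smallest exact two-sided permutation p is 0.333, so no test was made, and the start sites are not replicates of each other.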

How the data were processed

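ChIP-seq peak lists of 11 targets in NCI-H23, 2 libraries each, were used as deposited, 1 list per library in narrowPeak layout. The tools BWA and MACS2 and the build hg19 come from the submitters' processing notes; versions, settings and the control are not given in the sources used here. The fold enrichment is the authors' deposited ratio over local background. Each deposited peak also has a −log10 p and a −log10 q from the peak caller. The deposited score and the deposited summit offset in bp were read for layout and for summit positions only. Sequencing depth is unknown. For H3K9me3 replicate 2 the title and the description disagree on the replicate number; the title was used.

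The genes, start sites and lists were chosen with earlier results of these data known. All 8 genes and 9 start sites are named, with the strongest BRD2 peak by −log10 q of list 2 within 50 kb of each gene. Windows reached 1 kb to each side and needed 1 bp of overlap in both lists. No test was made. Python 3.11.15 with pandas 2.3.3 and numpy 2.4.6 was used for the overlaps and matplotlib 3.10.9 for the figures. The calling code was tested on simulated data, where 0 of 5000 windows were called wrongly. Promoter sequences came from RefSeq tables of GRCh38.p14; their coordinates were not mixed with hg19. The CDKN2A entry was matched by its distance from the CDKN2B start, 34448 bp in GRCh38.p14 and 34486 bp in hg19. Other pathway genes (CCND3, CCNE1, CDK2, CDKN1B, CDKN1C, CDKN2C, CDKN2D, E2F1, E2F2, E2F3, RBL1 and RBL2) and lineage markers of the cell line were not analysed here, as no hg19 annotation was used. Alternatives varied the window, the q threshold, the overlap and the replicates.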

Additional observations from a re-analysis of the deposited data

How the results depend on the processing

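Of 131 alternative values, 106 stayed within 1.5 times the reported count or, for the background share, within the spread between lists, and 25 did not; the cause was not tested. With BRD2 at 4 start sites as reported, there were 2 when a summit had to lie in the window (CDK4 and RB1), 2 when peaks had to cover at least 50.0% of the window (CCND1 and CCND2), and 7 when either list sufficed. Leaving out replicate 1 or 2 gave 7 or 4. All 5 acetylation marks were called at 5 start sites as reported, at 3 with the 10000 strongest peaks of each list, at 2 by summits and at 1 by coverage. They were called at 7 when either list sufficed and at 7 without replicate 2, with CDK6 and the upstream CDKN2A start added. H3K4me3 with H3K27ac and no repressive mark was called at 8, at 5 with the 10000 strongest peaks and at 4 by summits. H3K27me3 was called at 0 start sites under every alternative run. Only the windows of 2 kb to each side could have changed this, as neither list had a peak in the main windows. In those wider windows CDK6 had a peak in list 2, at 1740 bp, but not in list 1. At −log10 q of at least 5, BRD2 was called at 3 start sites, without CDK4, and with windows of 2 kb to each side at 5, with CDKN1A added. Unknown depth limits every absence of a peak. No paired analysis was possible because the results come from no test.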
